A study of Bos taurus with 23 samples.

Results

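The 66 genes described here were retained in station B but stayed at or under 1 CPM (the read pairs of a gene scaled to 1000000 pairs counted on genes) in each of the 11 libraries of station A. They were selected on these measured levels, out of 10832 genes retained in station B and 24616 genes in the count tables. Of 25 identifiers set aside beforehand, most of them differentially expressed genes reported by the study, 0 met the limit, so none was removed. The samples were peripheral white blood cells (PWBC) of Angus-Simmental crossbred heifers, drawn at the time of artificial insemination (AI). Red cells were lysed from the buffy coat, polyadenylated RNA was sequenced, and each heifer gave 1 library. Station A contributed 6 AI-pregnant heifers and 5 that conceived later by natural breeding (NB-pregnant). Station B contributed 6 AI-pregnant and 6 non-pregnant heifers. The libraries of each station carry their own run of library numbers (SL2207 and SL2538), so station and batch cannot be told apart.

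PWBC are a mixture of neutrophils, lymphocytes, monocytes and rarer granulocytes, and the share of each type varies between animals with age, infection and stress. In such bulk RNA a gene of a few CPM can come from a rare cell type or from a low level in a common one, and fewer cells of a type cannot be told apart from less RNA per cell. The files give Ensembl identifiers and do not pair them with names, and 0 of the identifiers matched the table of gene names at hand. The function, family, chromosome and sequence of the 66 genes are therefore not given here, and the labelled cell type was not checked against leukocyte markers. Library totals ran from 4826003 to 20434401 pairs, so that 1 CPM rested on 5 to 20 read pairs.

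Before the levels are given, 3 libraries of station B have to be set apart. In SL253804 and SL253811 (both non-pregnant) and SL253808 (AI-pregnant), many genes that were low in the other 9 libraries of station B were high. Among 1286 other genes with a median between 1.06 and 2.69 CPM over the 9 libraries, which is the range of the 66 genes, the median log2 ratio of the 3 libraries to the 9 was 2.14. The first principal component of the 12 libraries held 84.99% of the variance. The scores of single libraries on it are not given here, so which libraries it separates is not shown. The 3 libraries were set apart on measured values, so the comparisons of 3 with 9 libraries are descriptions without a test.

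The limit of 1 CPM passed through a continuous range. The highest station A value of a gene had a median of 0.776 CPM over the 66 genes, with 0.318 CPM as the lowest, and it exceeded 0.9 CPM in 13 genes. Just inside were ENSBTAG00000047398 (highest station A value 0.997 CPM), ENSBTAG00000006004 and ENSBTAG00000017187 (both 0.969 CPM). Just outside were ENSBTAG00000046910 (1.01 CPM), ENSBTAG00000038903 (1.02 CPM) and ENSBTAG00000012648 (1.02 CPM). In station B, retention asked for more than 1 CPM in at least 6 libraries, and 21 of the 66 genes met it in exactly 6. Another 21 exceeded 1 CPM in 7 libraries, 13 in 8, 7 in 9 and 4 in 10, and 0 of the 66 genes did so in 11 or 12. By the sixth highest station B value, ENSBTAG00000044972 (1.06 CPM) was the closest inside and ENSBTAG00000026122 (0.987 CPM) the closest outside. Of 11144 genes at or under 1 CPM throughout station A, 24 exceeded 1 CPM in 5 libraries of station B and so missed the limit by 1 library.

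The 66 genes were detected in both stations. Each had read pairs in station A, between 14 and 75 in total over the 11 libraries, and a gene was at 0 in at most 6 of them. The median of the gene medians was 1.51 CPM over the 9 libraries of station B, 0.440 CPM over the 3 libraries and 0.296 CPM in station A. Pooled over libraries, the level in the 9 libraries was 2.26 to 12 times that of station A, with a median of 4.47. In 24 of the 66 genes each of the 9 libraries was above each of the 11 libraries of station A. The limit of 1 CPM in station A favours such a separation, and its share over all retained genes was not counted. These values describe how the genes were chosen and carry no test.

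**Figure D1:**
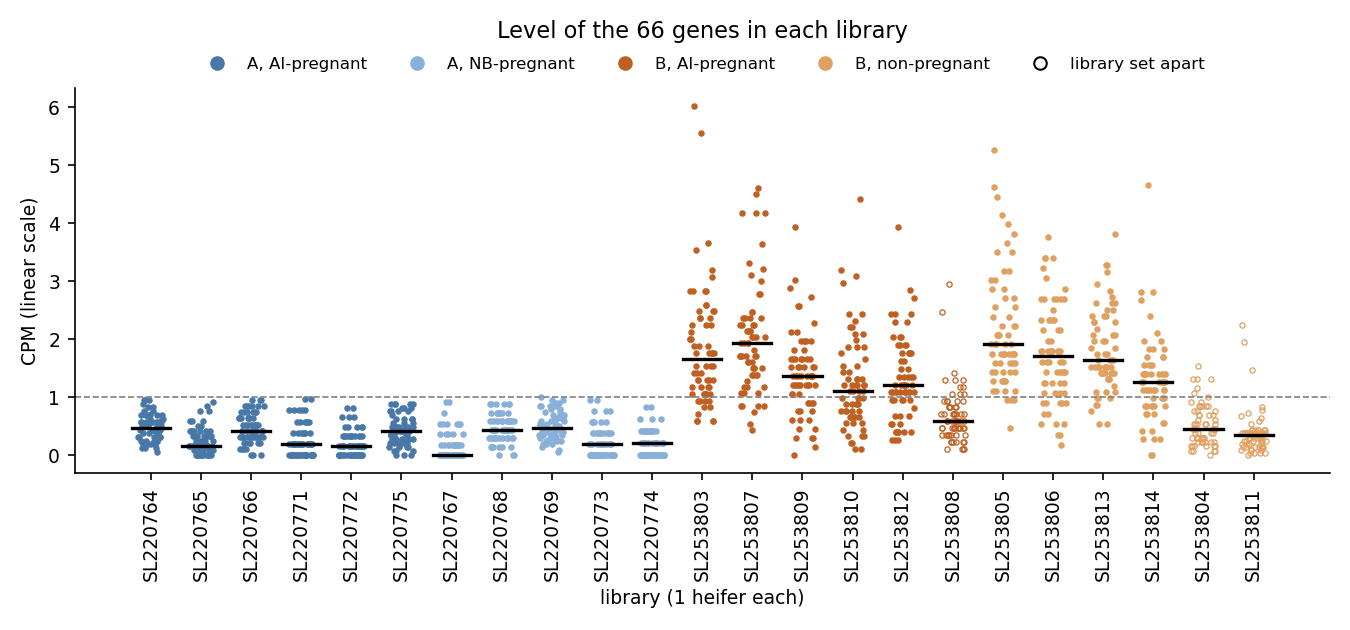
CPM (linear scale) of the 66 genes in each library, with 1 point per gene, a black bar at the median of the library and a dashed line at 1 CPM. Library medians were 1.10 to 1.93 CPM in the 9 libraries of station B (filled points), 0.343 to 0.589 CPM in the 3 libraries set apart (open points) and 0 to 0.476 CPM in station A.

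In the plot of levels by library, the 9 libraries of station B stand above the rest, and the medians of the 3 libraries lie in or just above the range of station A. SL253804 had a median of 0.461 CPM over the 66 genes, SL253808 had 0.589 CPM and SL253811 had 0.343 CPM. Between 35 and 62 of the 66 genes exceeded 1 CPM in each of the 9 libraries, against 6 in SL253804, 11 in SL253808 and 3 in SL253811. There were 50 genes that exceeded 1 CPM only among the 9 libraries, 16 that did so in at least 1 of the 3, and 1 that did so in all 3. Retention itself asked for more than 1 CPM in at least 6 libraries of station B. These counts therefore partly restate how the genes were chosen, and their share over all retained genes was not counted. A value of 0 occurred in station B for 5 genes, 3 times among the 9 libraries and 2 times among the 3. A count of 0 allowed up to 0.147 to 0.538 CPM in station B and 0.150 to 0.622 CPM in station A, depending on the library total. These limits, taken as 3 pairs of the total, cover counting error only.

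ENSBTAG00000019429 had the highest median of the 66 genes over the 9 libraries, with 0.948 CPM as the lowest value, 2.69 CPM as the median and 5.55 CPM as the highest. It had 0.538 CPM in SL253804, 0.589 CPM in SL253808 and 0.440 CPM in SL253811, and 0 to 0.798 CPM in station A with a median of 0.550 CPM. The 9 libraries lay above the 3 libraries and above station A without overlap, with SL253803 at the top and SL253812 at the bottom.

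ENSBTAG00000008797 ranged from 1.69 to 4.50 CPM over the 9 libraries with a median of 2.44 CPM. In SL253804, SL253808 and SL253811 it had 0.846, 0.353 and 0.245 CPM, and station A ranged from 0.194 to 0.848 CPM around 0.618 CPM. All 9 libraries were well above the rest, and SL253805 and SL253807 were the highest.

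ENSBTAG00000015353 ranged from 0.993 to 4.14 CPM over the 9 libraries with a median of 2.30 CPM. It had 0.922, 1.06 and 0.245 CPM in SL253804, SL253808 and SL253811. Here SL253808 overlapped the 9 libraries, since SL253810 had the lowest value among them. Station A ranged from 0 to 0.948 CPM with a median of 0.328 CPM.

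ENSBTAG00000012554, a gene of 8586 bases, had 0.993 to 3.41 CPM over the 9 libraries with a median of 2.27 CPM. It had 0.307, 0.707 and 0.440 CPM in SL253804, SL253808 and SL253811, and 0 to 0.698 CPM in station A with a median of 0.182 CPM. The next in CPM among genes of 200 bases or more were ENSBTAG00000020264 (median 2.24 CPM over the 9 libraries), ENSBTAG00000017866 (2.21 CPM) and ENSBTAG00000027936 (2.13 CPM). ENSBTAG00000020264 was the steadiest of the 66 genes, from 1.53 to 3.20 CPM. The remaining 56 of the 66 genes, outside the 10 with the highest medians, had medians down to 1.06 CPM.

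The 66 genes were short as a set, a property that the limit on CPM did not use directly. Their median length, as used for FPKM (fragments per kilobase of gene length, scaled to the library total), was 912 bases, against 2021 bases over all 10832 genes retained in station B. Under 200 bases there were 19 of the 66 genes (28.8%), with lengths from 62 to 155 bases. The share under 200 bases was 1.81% over all retained genes, 17.7% (61 of 344) over the other genes retained in station B only, 1.11% over the 10422 genes retained in both stations and 4.36% (56 of 1286) over the other genes of the same CPM range. In genome annotations, genes of this size are commonly small non-coding RNAs, which often lie inside longer host genes. The class of the 19 genes and their overlap with other genes were not determined here, so reads shared with a longer gene cannot be told apart from their own. Genes of 200 to under 1000 bases numbered 15, and genes of 1000 bases or more 32.

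**Figure D2:**
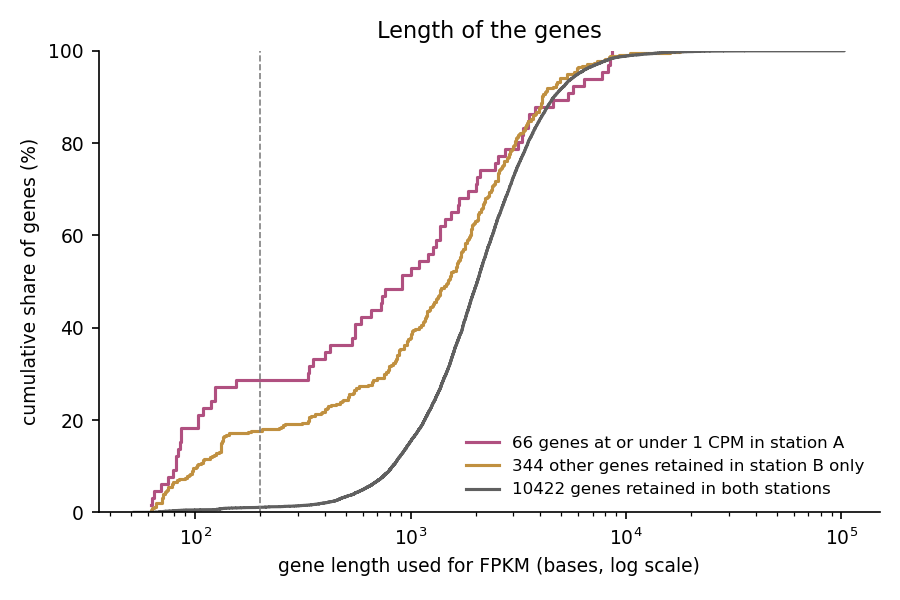
Cumulative share of genes (%) by gene length (bases, log scale) for the 66 genes, the 344 other genes retained in station B only and the 10422 genes retained in both stations. At the dashed line of 200 bases the curves stand at 28.8%, 17.7% and 1.11%.

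On the FPKM scale, which divides by gene length, the level fell as length rose. Most of the genes under 200 bases are shorter than a single sequenced read of the study. Their FPKM are therefore not on an equal footing with those of longer genes. The 19 genes under 200 bases had a median of 18.9 FPKM over the 9 libraries (9.60 to 32.5 FPKM), the 15 genes of 200 to under 1000 bases 2.90 FPKM (1.42 to 4.74 FPKM), and the 32 longer genes 0.639 FPKM (0.149 to 1.87 FPKM). The range of the genes under 200 bases lay above the others, and the ranges of the longer genes overlapped between 1.42 and 1.87 FPKM. This order is the arithmetic of a narrow CPM range divided by length.

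The highest FPKM belonged to ENSBTAG00000045306, a gene of 64 bases, with 17.3 to 57.0 FPKM over the 9 libraries and a median of 32.5 FPKM. Its CPM over the same libraries were 1.10 to 3.64 with a median of 2.07, so its FPKM rested on a small number of pairs. It had 0.461 CPM in SL253804, 0.825 CPM in SL253808 and 0.392 CPM in SL253811, and 0.169 to 0.756 CPM in station A with a median of 0.328 CPM. ENSBTAG00000043775 (81 bases) followed with a median of 28.3 FPKM, then ENSBTAG00000042368 (63 bases) with 22.2 FPKM and ENSBTAG00000042278 (103 bases) with 21.9 FPKM.

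At the other end, ENSBTAG00000003090 (8206 bases) had a median of 0.149 FPKM over the 9 libraries. In CPM its median was 1.22, inside the range of the short genes.

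The 66 genes were mostly lower in the 3 libraries than in the 9, which the way they were chosen favours. By medians, 64 of 66 (97.0%) were lower in the 3 libraries, against 52.2% of all retained genes, 82.6% of the other genes retained in station B only and 25.3% of the other genes of the same CPM range. The median log2 ratio of the 3 libraries to the 9 was -1.94 over the 66 genes and -0.12 over all retained genes. In 28 of the 66 genes (42.4%) all 3 libraries were below all 9, against 33.0% of all retained genes and 3.27% of the other genes of the same CPM range. Retention in at least 6 libraries and a low level in station A were part of how the genes were chosen. Of the 66 genes, 50 exceeded 1 CPM only among the 9 libraries. The other genes of the same CPM range had no limit in station A, where their median was 6.61 CPM, against 0.296 CPM for the 66 genes. These shares are therefore a description, and the sets compared differ in how they were chosen.

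**Figure D3:**
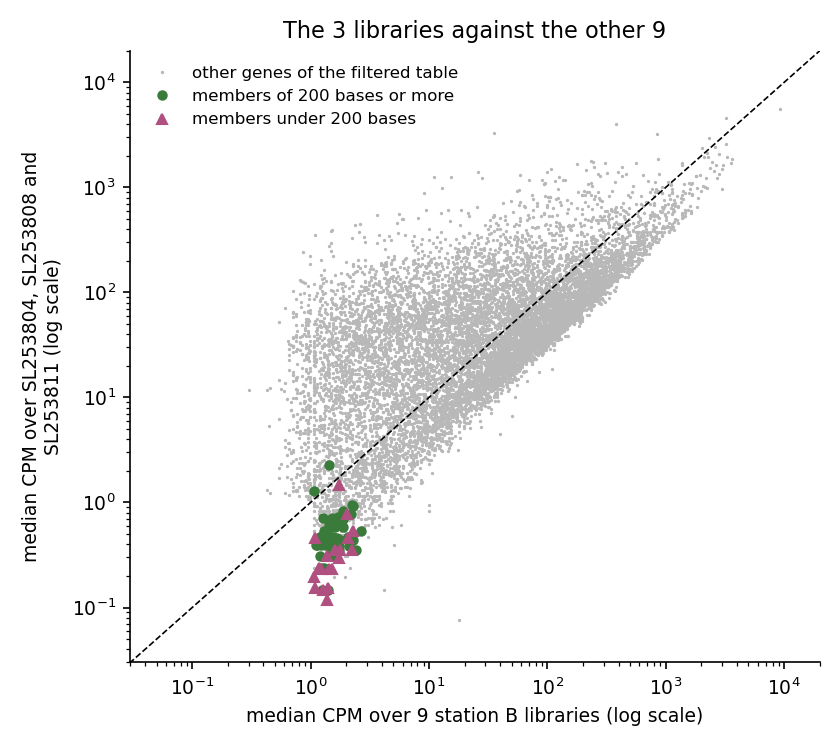
Median CPM over SL253804, SL253808 and SL253811 against median CPM over the other 9 libraries of station B (log scales), with 1 point per retained gene and a dashed line of equality; 2 other genes at 0 are not drawn. Of the 66 genes, 64 lie below the line, and the 1286 other genes of the same range on the horizontal axis have a median log2 ratio of 2.14.

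In the plot of the 3 libraries against the 9, the 66 genes form the lower left edge of the cloud. By length, 19 of 19 genes under 200 bases were lower in the 3 libraries with a median log2 ratio of -2.40, 14 of 15 of 200 to under 1000 bases with -1.49, and 31 of 32 of 1000 bases or more with -1.72. The other 177 retained genes under 200 bases were also mostly lower, 150 of 177 (84.7%), with a median log2 ratio of -1.17. Their summed level was 1680 to 2529 CPM in the 9 libraries, 801 to 1321 CPM in the 3 and 833 to 1624 CPM in station A. Within station B, short genes outside the 66 were thus mostly lower in the same 3 libraries. The part of transcript size in the result was not tested.

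The lowest ratio of the 3 libraries to the 9 was 0.0864, in ENSBTAG00000037868 (123 bases). It had 0.154 CPM in SL253804, 0.118 CPM in SL253808 and 0.0979 CPM in SL253811, against 0.882 to 2.39 CPM over the 9 libraries with a median of 1.36 CPM. In station A it had 0 to 0.491 CPM with a median of 0.275 CPM, so the 3 libraries lay inside the range of station A. ENSBTAG00000005156 (1198 bases, ratio 0.104), ENSBTAG00000042368 (63 bases, 0.110) and ENSBTAG00000043263 (62 bases, 0.116) came next. In ENSBTAG00000043263 SL253808 had 0.943 CPM, SL253811 had 0.147 CPM and SL253804 had 0 CPM. The first pair lay inside the range of the 9 libraries (0.110 to 2.01 CPM), and SL253804 lay below it.

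ENSBTAG00000038933 (2091 bases) and ENSBTAG00000047398 (550 bases) were higher in the 3 libraries. ENSBTAG00000038933 had 0.846 CPM in SL253804, 2.95 CPM in SL253808 and 2.25 CPM in SL253811, against 0.271 to 3.07 CPM over the 9 libraries with a median of 1.43 CPM. Its ratio of medians was 1.57, and the pooled ratio of counts was 1.18. ENSBTAG00000047398 had 0.461, 1.30 and 1.96 CPM in SL253804, SL253808 and SL253811, and 0 to 2.43 CPM over the 9 libraries with a median of 1.06 CPM. Both genes overlapped fully between the 3 libraries and the 9. ENSBTAG00000045619 (155 bases) had 1.08, 2.47 and 1.47 CPM in SL253804, SL253808 and SL253811 and was the only one of the 66 genes above 1 CPM in all 3. Its 9 libraries ran from 0.705 to 2.33 CPM with a median of 1.75 CPM. The fourth highest ratio was 0.555, in ENSBTAG00000021876.

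The summed level of the 66 genes separated the same libraries in short and in longer genes. It was 83.2 to 142 CPM in the 9 libraries, 34.4 CPM in SL253804, 45.6 CPM in SL253808 and 25.6 CPM in SL253811, and 10.03 to 33.7 CPM in station A. Within the 9 libraries, SL253803, SL253805, SL253806, SL253807 and SL253813 had 115.7 to 142 CPM, and the other 4 had 83.2 to 92.5 CPM. The first 5 (2 AI-pregnant and 3 non-pregnant) held the 5 highest sums of the short genes (32.9 to 42.2 CPM) as well as of the longer genes (78.2 to 105 CPM). The other 4 (3 AI-pregnant and 1 non-pregnant) had 16.1 to 26.1 CPM and 65.3 to 67.1 CPM. By single library, the highest value of a gene fell most often in SL253805 (15 of the 66 genes) and the lowest most often in SL253810 (17 genes). Both sets of libraries were read off the sums of the 66 genes, so this is a description. Library totals overlapped between the 5 (5577129 to 9330573 pairs) and the 4 (6602567 to 9065316 pairs).

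**Figure D4:**
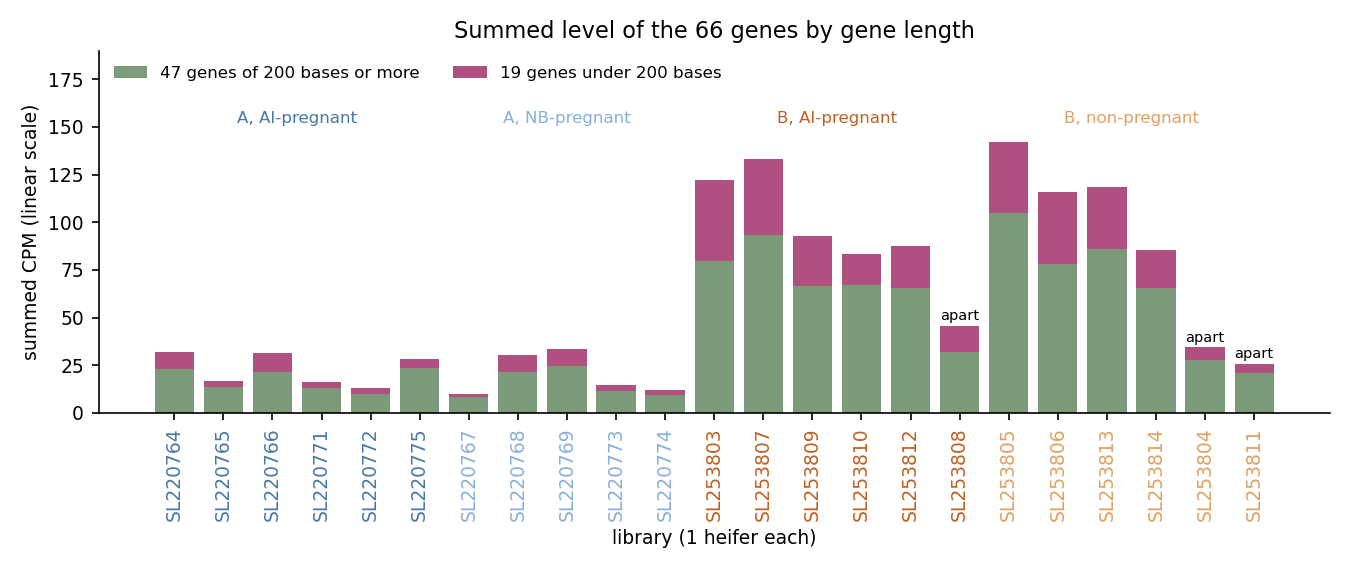
Summed CPM (linear scale from 0) of the 66 genes in each library, split into 47 genes of 200 bases or more and 19 genes under 200 bases. Sums are 83.2 to 142 CPM in 9 libraries of station B, 25.6 to 45.6 CPM in the 3 marked as apart and 10.03 to 33.7 CPM in station A, where 6 bars stay at or under 16.7 CPM.

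The bars of summed CPM also separate the libraries of station A. In 6 of them (3 AI-pregnant and 3 NB-pregnant, 4826003 to 11861598 pairs) the sum was 10.03 to 16.7 CPM and 13 to 39 of the 66 genes were at 0. In the other 5 (3 AI-pregnant and 2 NB-pregnant, 6832237 to 20053283 pairs) it was 28.4 to 33.7 CPM and at most 3 genes were at 0. Both sets were read off these sums, so the split is a description. The number of genes at 0 also depends on the library total. Among the 6, SL220765 had 11861598 pairs and 13 genes at 0, and the others had 4826003 to 6105250 pairs and 25 to 39. The gap between the sums appeared in the short genes (1.82 to 3.37 against 4.88 to 9.97 CPM) and in the longer genes (8.20 to 13.3 against 21.4 to 24.8 CPM). Retained genes under 200 bases outside the 66 did not show this gap. Their summed level was 833 CPM in SL220765 and 1350 to 1624 CPM in the others of the 6, against 912 to 1193 CPM in the 5. For these short genes most of the 6 thus lay above the 5. For the 66 genes, the sum of SL253811 in station B fell between these sets, and that of SL253804 just above the higher set.

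Among the 9 libraries the 66 genes varied about as much as other genes of their level. Their median coefficient of variation was 46.1%, against 45.9% over the other genes of the same CPM range. Counting alone gives 29.2% for the 66 genes, and the median ratio of the observed variance to the counting variance was 2.48. That ratio was 2.81 over the other genes of the same CPM range and 9.62 over all retained genes, whose counts are larger. It exceeded 2 in 42 of the 66 genes and in 904 of the 1286 other genes of the same CPM range, and it exceeded 4 in 15 and in 362 of them.

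ENSBTAG00000003090 had the largest coefficient of variation (78.8%). It ranged from 0.662 to 4.62 CPM over the 9 libraries with a median of 1.22 CPM. Only SL253805 (4.62 CPM) and SL253807 (4.18 CPM) were far above the rest. ENSBTAG00000042258, a gene of 69 bases, followed with 77.7%, from 0.151 CPM in SL253809 to 3.23 CPM in SL253806. ENSBTAG00000046546 had 75.1%, with SL253814 at 4.65 CPM, and ENSBTAG00000046345 had 74.7%, with SL253813 at 3.82 CPM. The libraries at the top thus differed between these 4 genes.

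Only 5 of the 66 genes stayed at or under 0.5 CPM in station A, and 3 of them were under 200 bases. ENSBTAG00000029802 (79 bases) had 0 CPM as the lowest and as the median of station A and 0.439 CPM as the highest. Over the 9 libraries it had 0.564 to 3.32 CPM with a median of 1.42 CPM, all above station A. In SL253804, SL253808 and SL253811 it had 0.231, 0.353 and 0.0489 CPM, inside the range of station A.

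ENSBTAG00000001969 (6389 bases) had read pairs in every library, with 0.182 to 0.414 CPM in station A and 0.454 to 2.62 CPM over the 9 libraries. ENSBTAG00000046060 (549 bases) had 0 to 0.399 CPM in station A and 0.303 to 2.51 CPM over the 9 libraries, and ENSBTAG00000044972 (81 bases) had 0 to 0.318 CPM and 0.110 to 2.23 CPM. Both of these genes overlapped station A through SL253809, and ENSBTAG00000044972 also through SL253810. The fifth, ENSBTAG00000037868, was described above.

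Pregnancy outcome in station B was not used to choose the genes, and it could be tested. The study compared AI-pregnant with non-pregnant heifers to find differences present in PWBC when the heifers were inseminated. The rule of the study asks for P at or under 0.01, without adjustment, in edgeR's likelihood ratio test as well as in DESeq2. The paper tied this P in station B to an empirical false discovery rate of 0.05, estimated by randomizing the group labels. The rule called 0 of the 66 genes and 0.0554% (6) of all 10832 genes. The smallest P among the 66 genes was 0.174 in edgeR and 0.132 in DESeq2. The edgeR quasi-likelihood test with Benjamini-Hochberg adjustment called 0 of the 66 genes and 0.0% of all genes at 0.05. At an unadjusted P under 0.05 it had 0 of the 66 genes and 0.443% (48) of all genes. The groups did not overlap in 0 of the 66 genes and in 0.0277% (3) of all genes. In the two-sided exact permutation test over 924 groupings of the heifers, the smallest P among the 66 genes was 0.134 (0.910 after adjustment over all genes), where 0.00216 is the smallest possible.

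The log2 fold change, non-pregnant against AI-pregnant, was above 0 in 22 of the 66 genes and below 0 in 44, with a median of -0.20 against 0.03 over all genes. Of the 3 libraries that were low for these genes, 2 are non-pregnant and 1 is AI-pregnant. Without the 3 libraries (5 AI-pregnant and 4 non-pregnant), 38 were above 0 and 28 below, with a median of 0.06 against 0.02 over all genes. In these 9 libraries the rule of the study called 0 of the 66 genes and 0.111% (12) of all genes. The groups did not overlap in 0 of the 66 genes and in 0.295% (32) of all genes. With SL253808 alone left out, the rule called 12.7% (1375) of all genes and 0 of the 66, and 53 of the 66 were below 0. The 66 genes lie near 1 CPM, and the way they were chosen favours low levels in the 3 libraries. The 0 in this fit is therefore not a result about these genes. SL253804 and SL253811, both non-pregnant, remained in that fit, and 1373 of the 1375 genes were higher in non-pregnant heifers. Outcome there cannot be told apart from what sets these libraries apart. Leaving out single heifers gave medians of -0.36 to -0.03, and the lowest was without SL253805, where 53 of the 66 were also below 0. Of the fits run, the median was above 0 without the 3 libraries and with the first principal component as covariate (0.01, with 33 genes above 0 and 33 below).

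ENSBTAG00000046546 had the largest positive difference by value. It ranged from 0.406 to 1.72 CPM with a median of 0.937 CPM in the AI-pregnant heifers and from 0.392 to 4.65 CPM with a median of 1.40 CPM in the non-pregnant. Its log2 fold change was 0.81 ± 0.60 (SE, 6 heifers per group) in the likelihood ratio fit. The adjusted p was 0.874 in the separate quasi-likelihood test of edgeR. The groups overlapped, and the highest value was a single heifer, SL253814, without which the log2 fold change was 0.24.

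ENSBTAG00000018465 ranged from 0.707 to 2.79 CPM with a median of 1.83 CPM in the AI-pregnant heifers and from 0.440 to 1.96 CPM with a median of 0.993 CPM in the non-pregnant. Its log2 fold change was -0.65 ± 0.47 (SE) in the likelihood ratio fit. The adjusted p of the quasi-likelihood test was again 0.874, and the exact permutation P was 0.134. SL253804, SL253806 and SL253811 were low among the non-pregnant heifers, and SL253808 among the AI-pregnant.

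ENSBTAG00000044972 had a log2 fold change of 0.52 ± 0.70 (SE) over 12 libraries and 1.19 over the 9, where the exact permutation P was 0.0556 before and 1.0 after adjustment over all genes, and 0.00794 is the smallest possible. Among the 9 libraries its non-pregnant heifers had 0.705 to 2.23 CPM and its AI-pregnant heifers 0.110 to 1.18 CPM. The other genes chosen for their outcome values were ENSBTAG00000008047 (0.53 ± 0.48), ENSBTAG00000032827 (-0.73 ± 0.63) and ENSBTAG00000045306 (-0.57 ± 0.55), with the adjusted p of edgeR's quasi-likelihood test at 0.874 in each.

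**Figure D5:**
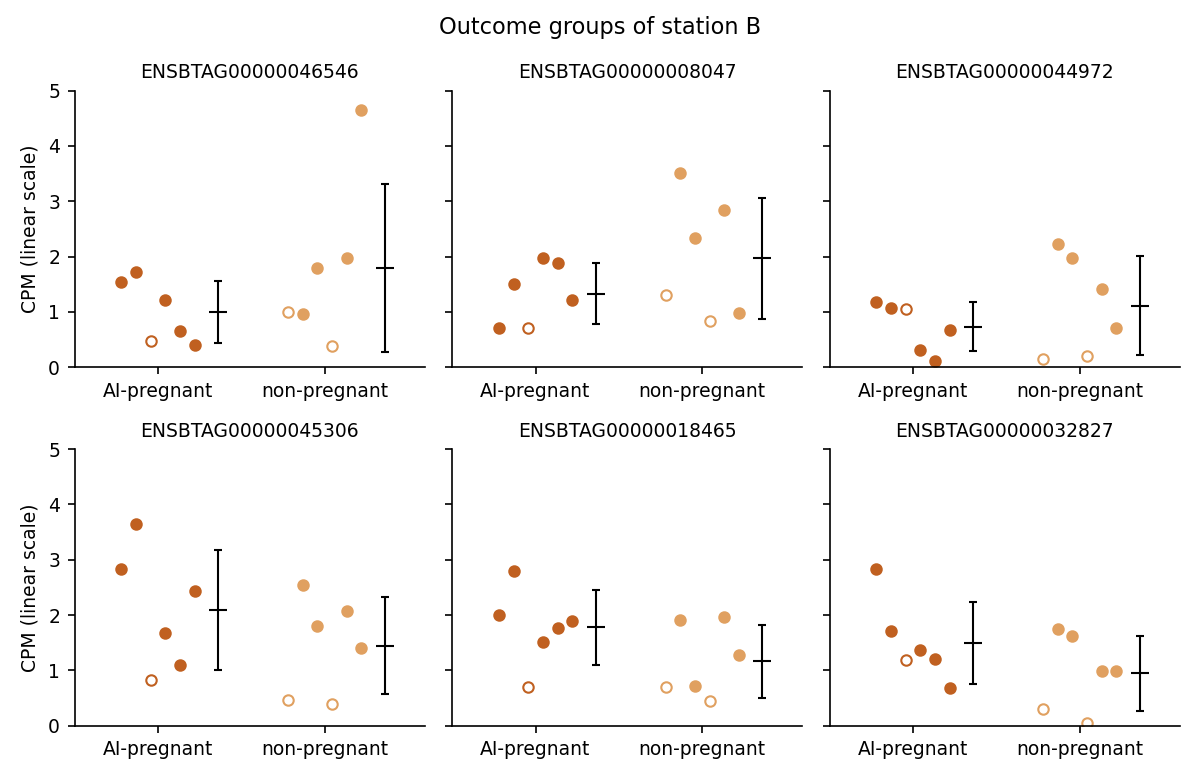
CPM (linear scale) of 6 of the 66 genes in the 12 heifers of station B by pregnancy outcome; points are heifers, open points are SL253804, SL253808 and SL253811, and bars are the mean ± SD of 6 heifers. The groups overlap in all 6 genes, and the open points are low in most of them.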

How the data were processed

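PWBC libraries of 23 heifers were used, each heifer an independent animal with 1 library, grouped by station and pregnancy outcome as in the labels. The authors mapped the pairs to the genome build UMD3.1, removed pairs aligned to several places and duplicates, and deposited unnormalized counts per Ensembl gene from HTSeq, with a second count table per station limited to retained genes. The library kit keeps strand, and the strand setting of the counting is not given in the sources used here. The FPKM were computed by the authors from the retained counts with edgeR, before deposit and without a log transformation. The retained genes of station B were checked to be those above 1 CPM in 6 or more of its 12 libraries, and gene lengths were taken from counts and FPKM.

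CPM were the counts over the library total, which was 4826003 to 20434401 pairs, so values near 1 CPM carry large counting error. Genes were chosen with 1 CPM as the limit in 11 libraries of station A. The genes, lists and tests were chosen with earlier results of these data known. SL253804, SL253808 and SL253811 were set apart on measured values. Genes named individually were the 10 with the highest median CPM over the other 9 libraries, in each direction the 3 with the lowest P of the quasi-likelihood test, the 4 highest and 4 lowest in the ratio of the 3 libraries to the 9, the 3 closest to the limit in station A and the 4 most variable, and those just outside the limits. ENSBTAG00000001969, ENSBTAG00000029802 and ENSBTAG00000046060 were named after their values were seen. Levels per length were compared as FPKM only.

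Station B was fitted over all 10832 retained genes, with AI-pregnant as the reference. The rule of the study combined edgeR's likelihood ratio test (robust dispersion, no normalization factors) with the DESeq2 Wald test, each with P at or under 0.01 without adjustment. The edgeR quasi-likelihood test used TMM factors and Benjamini-Hochberg adjustment at 0.05. Log2 fold changes for outcome, unless an alternative is named, are those of the likelihood ratio fit without normalization factors. Standard errors were derived from the likelihood ratio statistic, as the log2 fold change divided by its square root. Mean CPM of the outcome groups were tested by exact permutation, two-sided and adjusted over all retained genes. The methods were tested on simulated counts. Alternatives were other limits for choosing the genes, TMM-scaled CPM, FPKM, other filters, each test alone, the first principal component as a covariate and each heifer left out. Cell type markers, gene families, chromosomes and sequences were not analysed here, because 0 identifiers matched the table of names. R 4.3.3 was used with DESeq2 1.42.0, edgeR 4.0.16 and limma 3.58.1, and Python 3.11.15 with scipy 1.17.1, numpy 2.4.6, matplotlib 3.10.9 and pandas 2.3.3.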

Additional observations from a re-analysis of the deposited data

Results flagged for a closer look

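Of 112 groups of 5 or 6 heifers, 4 groups in each of 28 named genes, 4 had 1 heifer far from the others by Dixon's 95% critical value, and chance gives about 1 in 20 groups (5.6 here). ENSBTAG00000046546 had 4.65 CPM in SL253814, the highest of the 6 non-pregnant heifers of station B, where the next was 1.96 CPM and the lowest 0.392 CPM. ENSBTAG00000047398 had 2.43 CPM in SL253810, against 1.30 CPM in the next AI-pregnant heifer of station B. ENSBTAG00000006004 had 2.14 CPM in SL253807, where the next AI-pregnant heifer had 1.21 CPM. ENSBTAG00000003090 had 4.18 CPM in the same library, where the next AI-pregnant heifer had 1.30 CPM.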

How the results depend on the processing

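The number of genes chosen depended on the limit. With 0.5 CPM in station A it was 5 genes, with 2 CPM it was 296 genes, which held all 66, and with each station A heifer left out in turn it was 67 to 77. CPM scaled by TMM factors gave 76 genes, of which 59 were among the 66. Of all retained genes, the rule of the study called 16 with DESeq2 alone, 12 without the 3 libraries, 28 with the first component as covariate and 3 to 1375 with each heifer left out. Without SL253808 it was 1375, of which 1373 were higher in non-pregnant heifers, and the cause was not tested. SL253804 and SL253811, both non-pregnant, remained in that fit. Outcome there cannot be told apart from what sets these libraries apart. The quasi-likelihood test called 1 gene without the 3 libraries. Neither test called any of the 66 genes in the 18 alternatives run for each. A filter of more than 1 CPM in all 12 libraries left none of the 66 to test. The ratio of the 3 libraries to the 9 kept its direction with TMM factors and with FPKM (median log2 ratio -1.93 to -1.92, 64 genes lower in both). Gene length cancels in a ratio within a gene, and the TMM factors were only 0.88 to 1.10. These 2 alternatives could hardly have changed the direction. The 6 genes named for outcome kept the sign of their log2 fold change in 17 alternatives each, but the size rested on single heifers. They were chosen by their P in these same libraries, so a kept sign carries no support for a difference. With 1 heifer left out, ENSBTAG00000046546 ranged from 0.24 (without SL253814) to 1.03 (without SL253807), ENSBTAG00000008047 from 0.29 (without SL253805) to 0.71 (without SL253811), and ENSBTAG00000044972 from 0.19 (without SL253805) to 0.76 (without SL253804 or SL253811). ENSBTAG00000018465 ranged from -0.89 (without SL253813) to -0.45 (without SL253811), ENSBTAG00000032827 from -1.02 (without SL253805) to -0.46 (without SL253803 or SL253811), and ENSBTAG00000045306 from -0.81 (without SL253805) to -0.34 (without SL253807). Without the 3 libraries together, ENSBTAG00000044972 had 1.19, ENSBTAG00000032827 had -0.26 and ENSBTAG00000045306 had -0.26. No paired analysis was possible because the labels carry no replicate number that links heifers of different groups. Values near 1 CPM rest on 5 to 20 pairs, so values of single libraries carry wide counting intervals.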
